A study of Homo sapiens with 15 samples.

Results

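The genes described here are the enzymes that write and remove DNA methylation and the core of polycomb repressive complex 2: DNMT1, DNMT3A, DNMT3B, UHRF1, TET1, TET2, TET3, EZH2, SUZ12 and EED. They were chosen by name, and all 10 were measured among the 18377 genes of the table. RNA came from PC3 and DU145, established human prostate cancer cell lines that the labels trace to a bone and a brain metastasis. In each line cells received a miR-224 mimic, a miR-452 mimic or a scrambled mimic (labelled scrambled no. 2), each at 20 nM by reverse transfection with Lipofectamine, or were left untransfected, and RNA was isolated 48 h later. Mimics are short synthetic RNA duplexes that act as a given mature microRNA. The scrambled groups share the reagent with the microRNA groups, and the labels call the untransfected groups untreated. Each group had 2 arrays (Affymetrix Human Gene 1.0 ST), except the DU145 scrambled group with 1, which was assumed to vary like the other DU145 groups. The arrays carry the letters a, b and c in their titles.

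Levels are deposited log2 values, normalized by the authors within each line, so levels of PC3 and DU145 are set side by side and not tested against each other. A level is not corrected for how well a gene's probes bind, so levels of different genes are not compared. Differences are log2 values ± the standard error from limma, and a gene was called at a Benjamini-Hochberg adjusted p under 0.05 over all 18377 genes. The labels do not say that the arrays of a group came from separate cultures, so each p-value reflects array spread that may be technical only. In bulk RNA a change in the number of cycling cells and a change in the RNA of each cell cannot be told apart. A p that misses the threshold does not show that values are alike. Shares of all genes are given at the adjusted threshold only. Numbers of genes at an unadjusted p under 0.05 have no such share beside them and cannot be set against it.

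DNA methylation in mammals is a mark on cytosines of CG pairs. DNMT3A and DNMT3B set it on new sites, DNMT1 copies it onto the new strand during DNA replication, and UHRF1 binds DNA that carries the mark on the old strand only and brings DNMT1 there. The TET enzymes oxidise methylcytosine, which leads to its removal. EZH2, SUZ12 and EED form the core of polycomb repressive complex 2 (PRC2), which methylates lysine 27 of histone H3 at silenced genes: EZH2 is the methyltransferase, EED binds the finished mark and stimulates the enzyme, and SUZ12 holds the complex together. EZH2 is known for its high level in advanced prostate cancer, and DNMT1, UHRF1 and EZH2 are known to be made most in dividing cells, where E2F factors drive replication genes.

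Both microRNAs come from a pair of hairpins inside the gene GABRE on the X chromosome. The mature sequences are shown because they define the treatments, with the seed (bases 2 to 8) in capitals. The sequences are those of RefSeq (GRCh38.p14, minus strand), and the labels do not say which arm each mimic carried.
hsa-miR-224-5p, chrX:151958628-151958652: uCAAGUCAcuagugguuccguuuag
hsa-miR-224-3p, chrX:151958584-151958606: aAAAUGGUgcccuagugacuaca
hsa-miR-452-5p, chrX:151959678-151959699: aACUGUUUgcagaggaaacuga
hsa-miR-452-3p, chrX:151959634-151959655: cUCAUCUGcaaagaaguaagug
No seed is shared among these 4 arms. GABRE itself was at 5.67 to 5.90 over the PC3 arrays and at 5.33 to 5.63 over the DU145 arrays, and the 4595 genes of lowest mean level in PC3 ended at 6.32.

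The start regions of the genes described were searched for E2F-type letters after the levels had been seen. DNMT1, UHRF1 and EZH2 were lower in PC3 in the same comparison as replication genes, and so were SUZ12 and EED. The windows ran from 250 bases before to 50 bases after each start listed by RefSeq (GRCh38.p14), which gave 22 windows for the 10 genes. The motifs searched were TTTCCCGC, TTTCGCGC, TTTGCCGC and TTTGGCGC, on both strands. Of all 35116 windows, 3.31% held at least 1 of them, and of the 14210 measured genes with a window, 5.51% did. DNMT1, UHRF1, EZH2 and SUZ12 held a match, in 5 of the 22 windows. No window of DNMT3A, DNMT3B, TET1, TET2, TET3 or EED held these letters. The stretches of 120 bases around 4 of the matches are printed 5′ to 3′ on the gene's strand, with the match in capitals. These 4 genes are among the 5 that were lower with the scrambled mimic in PC3, and EED, the other, held no match.
DNMT1, chr19:10194924-10195043, minus strand: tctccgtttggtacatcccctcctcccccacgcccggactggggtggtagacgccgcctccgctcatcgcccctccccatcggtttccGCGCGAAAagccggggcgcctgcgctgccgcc
UHRF1, chr19:4909411-4909530, plus strand: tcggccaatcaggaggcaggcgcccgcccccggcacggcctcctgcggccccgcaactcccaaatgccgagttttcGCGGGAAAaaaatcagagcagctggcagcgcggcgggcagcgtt
EZH2, chr7:148884262-148884381, minus strand: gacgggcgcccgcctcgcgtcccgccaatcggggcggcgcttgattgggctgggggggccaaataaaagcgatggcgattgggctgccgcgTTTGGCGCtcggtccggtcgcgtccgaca
SUZ12, chr17:31936762-31936881, plus strand: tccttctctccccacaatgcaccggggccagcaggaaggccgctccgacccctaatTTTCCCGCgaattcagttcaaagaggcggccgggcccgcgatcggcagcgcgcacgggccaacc
The match began 2 bases before the start in DNMT1 and 14 bases before it in UHRF1, 189 bases before it in SUZ12 and 1 base past it in EZH2. UHRF1 has 3 listed starts, and the window of another of them also held a match. A match is a run of letters and not a shown binding site. The windows of the 10 genes held a median of 29 CG pairs, with a range from 3 in DNMT3B to 46, against a median of 14 over all windows. Each motif holds a CG pair, and the shares over all windows and genes were not matched for CG pairs. The part of E2F factors in these levels was not tested.

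Marker genes are given by their levels, which alone do not settle what cells are present. Of the 5 epithelial markers, KRT8 was at 11.22 to 11.56 in PC3 and 11.68 to 12.17 in DU145, while CDH1 was at 6.73 to 7.30 in PC3 and 8.38 to 8.93 in DU145 and EPCAM ran from 6.85 to 9.01 in PC3 and from 7.27 to 9.07 in DU145. The prostate secretory genes KLK2 and KLK3, which these androgen-independent lines are known to make little of, were at 6.32 to 6.82 over PC3 arrays and at 5.60 to 6.54 over DU145 arrays. Among markers of other cell types, the leukocyte gene PTPRC was at 5.00 to 5.13 in PC3 and 5.08 to 5.31 in DU145, and CD68 of the same list was at 9.49 to 10.29 in PC3 and 9.42 to 9.84 in DU145. In PC3 the endothelial gene KDR was at 8.56 to 9.42 and the fibroblast gene COL1A1 at 8.25 to 8.63. Arrays of the same group correlated at r = 0.991 to 0.998 across genes. The deposited arrays did not share a distribution: the standard deviation over genes was 1.57 to 1.64 in the 6 transfected PC3 arrays, against 1.69 and 1.66 in the untransfected ones, and 1.38 to 1.47 in the 5 transfected DU145 arrays, against 1.55 in both untransfected ones. The 4594 genes of highest mean level had a median difference below 0 against untransfected cells, at -0.13 for the scrambled mimic in PC3 and -0.17 in DU145. Called differences of the 10 genes that quantile normalization within the line ended or moved by over 1.5 times are given with that value.

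**Figure D1:**
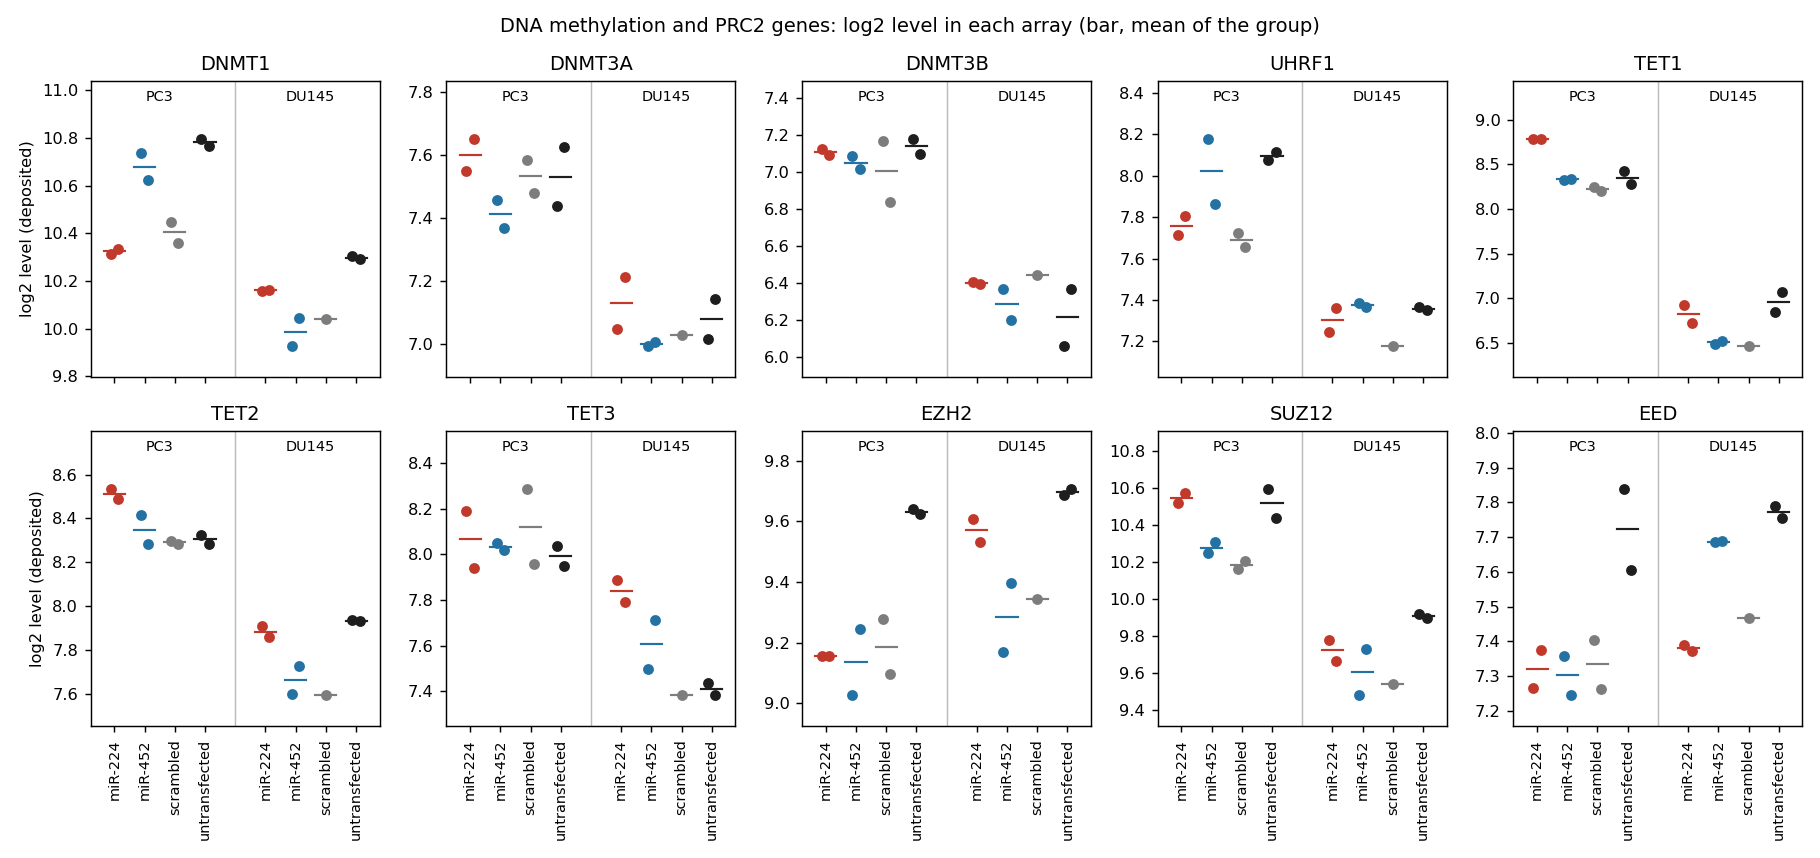
Log2 level (y axis, deposited values) of the 10 genes in each of the 15 arrays, by line and treatment; points are arrays and bars are group means. In PC3, TET1 stands highest with the miR-224 mimic (8.78 and 8.79), while EZH2 stands highest in untransfected cells (9.64 and 9.62) and lower in all 6 transfected arrays.

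Set against the scrambled mimic, 2 of the 10 genes were higher with miR-224 in PC3, TET1 and SUZ12, and none was lower, while 12.1% of all genes were called higher. The median difference of the 10 genes was 0.07, against -0.01 for all genes. With miR-452 none of the 10 was called in PC3 by limma, while 5.22% of all genes were called in either direction, and 2 of the 10, DNMT1 and UHRF1, were higher at an unadjusted p under 0.05. In DU145, none was called with miR-224 against the single scrambled array (1.94% of all genes called), where TET1, TET2 and TET3 were higher at an unadjusted p under 0.05. None was called with miR-452 either (2.1% of all genes called), and none had an unadjusted p under 0.05.

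Set against untransfected cells, more of the genes were lower. In PC3, 5 of the 10 were lower with the scrambled mimic alone, DNMT1, UHRF1, EZH2, SUZ12 and EED, where 10.9% of all genes were called lower. Their number was 3 with miR-224 (DNMT1, EZH2 and EED; 6.85% of all genes called lower) and 2 with miR-452 (EZH2 and EED; 14.1%). In PC3, TET1 alone of the 10 was higher than in untransfected cells, with miR-224 (2.84% of all genes called higher). In DU145, TET1 was lower with the scrambled mimic (9.22% of all genes called lower) and DNMT1, TET1, TET2 and EZH2 were lower with miR-452 (19.9%). With miR-224, EED was lower (15.5%) and TET3 higher (5.44% of all genes called higher). These comparisons share the untransfected arrays of their line. The median of the 10 genes against untransfected PC3 cells was 0.00 with miR-224, -0.10 with miR-452 and -0.23 with the scrambled mimic, against 0.03, 0.01 and 0.00 for all genes. In DU145 it was -0.09, -0.18 and -0.28, against 0.02, -0.02 and 0.03. Genes of higher level differ from all genes here. For the 4594 genes of highest mean level the medians in the same order were -0.04, -0.12 and -0.13 in PC3 and -0.15, -0.21 and -0.17 in DU145. For the next 4594 genes in DU145 they were -0.114, -0.175 and -0.108. All of the 10 but DNMT3B and TET1 lay in these upper groups in DU145.

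The mimics were also compared with each other. In PC3, TET1 and SUZ12 were higher with miR-224 than with miR-452 (12.5% of all genes called higher) and DNMT1 was lower (5.99% called lower). In DU145 none of the 10 was called by limma between the mimics (5.91% of all genes called in either direction), while TET1, TET2, TET3 and EZH2 were higher and EED lower at an unadjusted p under 0.05.

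**Figure D2:**
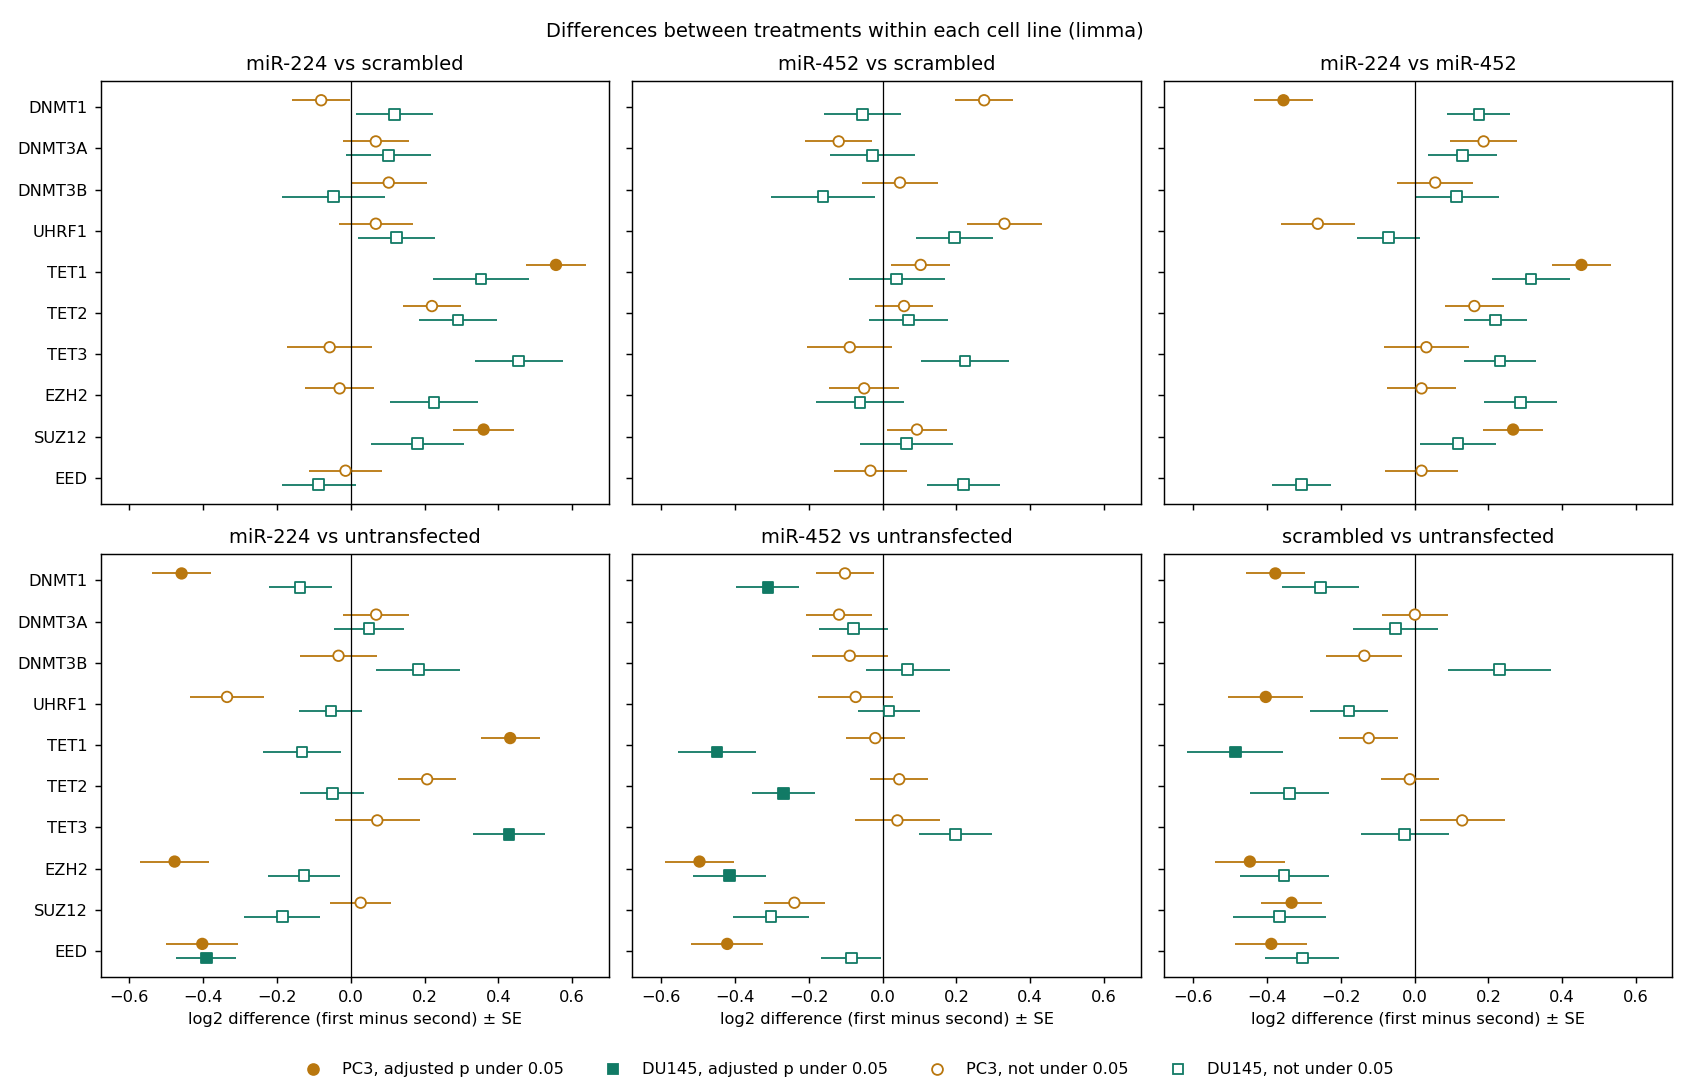
Log2 difference ± SE (x axis, first-named treatment minus second) of each of the 10 genes (y axis) in 6 comparisons, with circles for PC3 and squares for DU145, filled where the adjusted p is under 0.05. TET1 lies at 0.56 for miR-224 against the scrambled mimic in PC3, and in the panel of scrambled against untransfected cells 5 PC3 genes are filled, all on the left of 0.

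DNMT1, the maintenance methyltransferase, was lower with miR-224 and with the scrambled mimic than in untransfected PC3 cells, and stayed nearer to the untransfected level with miR-452. The levels were 10.31 and 10.34 with miR-224, 10.74 and 10.62 with miR-452, 10.45 and 10.36 with the scrambled mimic, and 10.80 and 10.77 in untransfected PC3 cells. The arrays of miR-224 and scrambled cells all lay below every miR-452 and untransfected array. The difference was -0.46 ± 0.08 for miR-224 against untransfected cells (adjusted p = 0.0044, 0.728-fold), and this call held with each array left out. It was -0.38 ± 0.08 for the scrambled mimic (adjusted p = 0.0135), and it was not called without untransfected array b (-0.36, adjusted p = 0.131) or scrambled array c (-0.33, adjusted p = 0.0781). Against miR-452, miR-224 had a difference of -0.36 ± 0.08 (adjusted p = 0.0086), which lost the call without miR-224 array a (adjusted p = 0.0567), miR-224 array b (adjusted p = 0.057) or miR-452 array b (adjusted p = 0.0696). For miR-452 against the scrambled mimic the difference was 0.28 ± 0.08 (adjusted p = 0.0721), and it passed after quantile normalization (0.27, adjusted p = 0.0463).

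In DU145, DNMT1 was at 10.16 on both miR-224 arrays, 9.93 and 10.04 with miR-452, 10.04 with the scrambled mimic, and 10.30 and 10.29 in untransfected cells. All transfected arrays lay below both untransfected ones. The call was made for miR-452 against untransfected cells, at -0.31 ± 0.09 (adjusted p = 0.0264). After quantile normalization it was -0.13 (adjusted p = 0.197), and it was not called without miR-452 array a (-0.25, adjusted p = 0.0729) or without either untransfected array (adjusted p = 0.17 and 0.162).

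UHRF1, the factor that brings DNMT1 to replicated DNA, was measured by 2 array features that disagree. The feature annotated with RefSeq transcripts stood at 8.71 and 8.93 with miR-224, 9.61 and 9.14 with miR-452, 8.59 on both scrambled arrays, and 9.61 and 9.51 in untransfected PC3 cells. In DU145 it stood at 8.41 on both miR-224 arrays, 8.42 and 8.58 with miR-452, 7.99 with the scrambled mimic, and 8.69 and 8.80 in untransfected cells. In both lines the scrambled arrays were lowest and the untransfected arrays among the highest. The other feature, annotated only with cDNA records, ran from 6.55 to 6.86 over the PC3 arrays and from 5.90 to 6.37 over the DU145 arrays. Its order in DU145 was the reverse, with the scrambled array highest (6.37) and the untransfected arrays lowest (6.04 and 5.90). In PC3 its highest array was a scrambled one (6.86) and its lowest an untransfected one (6.55), while the other untransfected array was at 6.71.

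Averaged, as for every gene, UHRF1 was at 7.71 and 7.81 with miR-224, 8.18 and 7.87 with miR-452, 7.73 and 7.66 with the scrambled mimic, and 8.08 and 8.11 in untransfected PC3 cells. The average was called for the scrambled mimic against untransfected PC3 cells, at -0.40 ± 0.10 (adjusted p = 0.0254). That call was lost after quantile normalization (-0.30, adjusted p = 0.0549), without scrambled array c (-0.37, adjusted p = 0.115), and without untransfected array b (-0.42, adjusted p = 0.179) or c (-0.39, adjusted p = 0.0734). The RefSeq feature alone gave -0.97 ± 0.14 (adjusted p = 0.00397, 0.511-fold) and the cDNA feature 0.16 ± 0.09 (adjusted p = 0.235). With miR-452 against the scrambled mimic in PC3 the average was 0.33 ± 0.10 (adjusted p = 0.0928; 0.35 after quantile normalization, adjusted p = 0.038), the RefSeq feature 0.79 ± 0.14 (adjusted p = 0.00726), and the cDNA feature -0.13 ± 0.09. The RefSeq feature was also lower with miR-224 than in untransfected PC3 cells (-0.74 ± 0.14, adjusted p = 0.00748) and than with miR-452 (-0.55 ± 0.14, adjusted p = 0.0163). In DU145 it was lower with the scrambled mimic than in untransfected cells (-0.76 ± 0.11, adjusted p = 0.0163), where the average was -0.18 ± 0.11 (adjusted p = 0.249). With miR-224 against untransfected DU145 cells the RefSeq feature was lower as well (-0.335 ± 0.092, adjusted p = 0.0357), where the average was -0.05 ± 0.09 (adjusted p = 0.648). The choice to read the features apart was made after their values were seen.

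**Figure D3:**
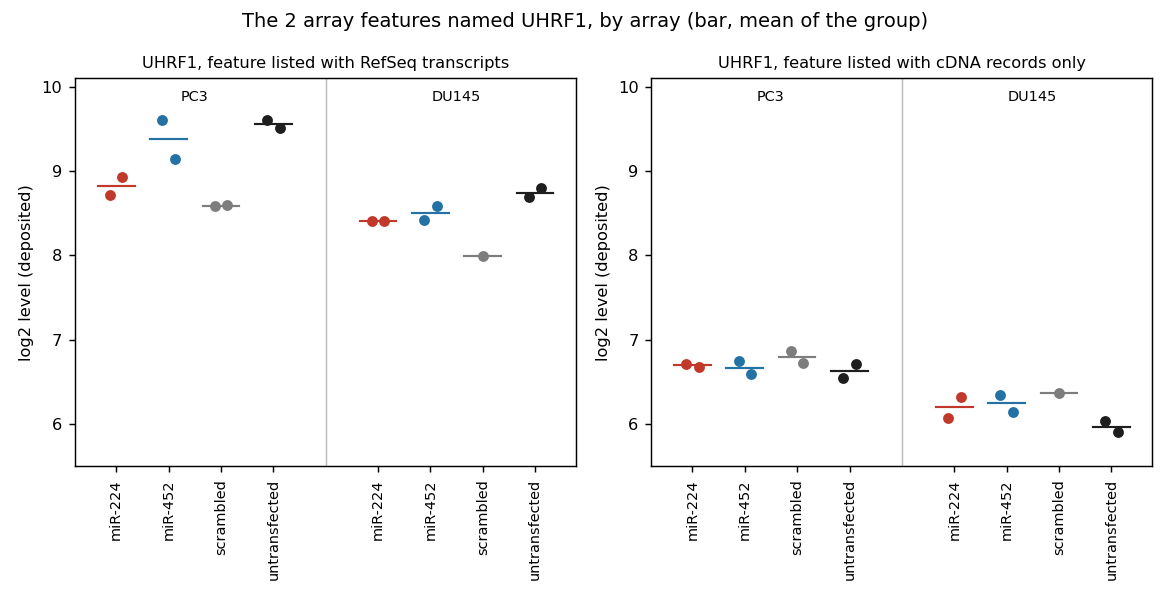
Log2 level (y axis) of the 2 array features named UHRF1 in each array, by line and treatment; points are arrays and bars are group means, on the same scale in both panels. The feature annotated with RefSeq transcripts spans 8.59 to 9.61 in PC3, and the other feature stays between 6.55 and 6.86.

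The methyltransferases that set new marks were called in none of the 12 comparisons within a line. DNMT3A was at 7.55 and 7.65 with miR-224, 7.46 and 7.37 with miR-452, 7.58 and 7.48 with the scrambled mimic, and 7.44 and 7.62 in untransfected PC3 cells. In DU145 its 7 arrays ran from 6.995 to 7.214. Its difference was within ± 0.19 in each comparison, and the arrays of miR-224 and scrambled cells overlapped in PC3. DNMT3B was at 7.12 and 7.09 with miR-224, 7.09 and 7.02 with miR-452, 7.17 and 6.84 with the scrambled mimic, and 7.18 and 7.10 in untransfected PC3 cells. Its arrays within the scrambled group lay farther apart than the means of any 2 PC3 groups. In DU145, DNMT3B ran from 6.06 on an untransfected array to 6.45 on the scrambled array.

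TET1 gave the difference with the smallest p among the 10 genes. It was at 8.78 and 8.79 with miR-224, 8.33 and 8.34 with miR-452, 8.25 and 8.21 with the scrambled mimic, and 8.43 and 8.28 in untransfected PC3 cells. Both miR-224 arrays lay above the other 6 PC3 arrays. The difference was 0.56 ± 0.08 against the scrambled mimic (adjusted p = 0.000943, 1.47-fold) and 0.45 ± 0.08 against miR-452 (adjusted p = 0.00229), and both calls held with each array left out. Against untransfected cells it was 0.43 ± 0.08 (adjusted p = 0.00636), which was not called without miR-224 array b (0.43, adjusted p = 0.0553).

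In DU145, TET1 was at 6.93 and 6.73 with miR-224, 6.50 and 6.53 with miR-452, 6.47 with the scrambled mimic, and 6.85 and 7.07 in untransfected cells. The miR-224 and untransfected arrays overlapped, and the miR-452 and scrambled arrays lay below them. TET1 was lower than in untransfected cells with miR-452, at -0.45 ± 0.11 (adjusted p = 0.0165), and with the scrambled mimic, at -0.49 ± 0.13 (adjusted p = 0.043). The first call was lost after quantile normalization (-0.45, adjusted p = 0.0501), without untransfected array c (-0.34, adjusted p = 0.158) and without miR-452 array a (-0.43, adjusted p = 0.0627). The second was lost after quantile normalization (-0.51, adjusted p = 0.0746), without untransfected array b (-0.60, adjusted p = 0.114) or c (-0.37, adjusted p = 0.228), and without either miR-224 array (adjusted p = 0.0506 for each). Against the scrambled array, miR-224 had a TET1 difference of 0.35 ± 0.13 (adjusted p = 0.254).

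The miR-224 change of TET1 against untransfected cells differed between the lines. It was 0.43 in PC3 and -0.13 in DU145, a difference of 0.56 ± 0.13 (adjusted p = 0.0264, 4.33% of all genes called higher in PC3). TET1 was the only one of the 10 genes called in this test. The call was lost without PC3 untransfected array c (0.49, adjusted p = 0.137), PC3 miR-224 array a (adjusted p = 0.0571) or b (adjusted p = 0.112), DU145 untransfected array c (0.45, adjusted p = 0.131) and DU145 miR-224 array c (0.46, adjusted p = 0.12). After quantile normalization DNMT1 (-0.42, adjusted p = 0.0194) and EZH2 (-0.46, adjusted p = 0.0411) were called as well, both lower in PC3 relative to DU145.

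No member was called by limma for the difference between lines in the other 3 contrasts. With the scrambled mimic as control, TET1 differed by 0.20 ± 0.15 for miR-224 (adjusted p = 0.676, and 0.08 after quantile normalization) and TET3 by -0.51 ± 0.18 (adjusted p = 0.208), where 1.15% of all genes were called in either direction and TET3 alone of the 10 had an unadjusted p under 0.05. For miR-452 the share of all genes called was 0.62% against the scrambled mimic, with DNMT1 the 1 gene of the 10 at an unadjusted p under 0.05 (0.33 ± 0.12, adjusted p = 0.303). It was 2.88% against untransfected cells, with TET1 and TET2 higher and EED lower in PC3 relative to DU145 at an unadjusted p under 0.05. EED was called there after quantile normalization (-0.48, adjusted p = 0.0422).

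TET2, whose gene is often mutated in blood cancers, was at 8.54 and 8.49 with miR-224, 8.42 and 8.28 with miR-452, 8.30 and 8.29 with the scrambled mimic, and 8.32 and 8.29 in untransfected PC3 cells. The miR-224 arrays lay above the other 6, and the difference against the scrambled mimic was 0.22 ± 0.08 (adjusted p = 0.0816). Its 2 features gave 0.29 ± 0.08 (adjusted p = 0.0417) and 0.15 ± 0.10 (adjusted p = 0.38). For miR-224 against untransfected PC3 cells the TET2 difference was 0.21 ± 0.08 (adjusted p = 0.131), and it passed after quantile normalization (0.27, adjusted p = 0.0403). In DU145, TET2 was at 7.91 and 7.86 with miR-224, 7.60 and 7.73 with miR-452, 7.60 with the scrambled mimic, and 7.94 and 7.93 in untransfected cells. There it was lower with miR-452 than in untransfected cells, at -0.27 ± 0.09 (adjusted p = 0.0444), but after quantile normalization the difference was -0.05 (adjusted p = 0.651). That call was also lost under trend and robust moderation (adjusted p = 0.0526), without either untransfected array (adjusted p = 0.22 and 0.222), without either miR-224 array (adjusted p = 0.0678 for each) and without miR-452 array a (-0.21, adjusted p = 0.124).

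TET3, the TET enzyme known for its role in the fertilised egg, was higher with miR-224 than in untransfected DU145 cells. It was at 7.89 and 7.79 with miR-224, 7.50 and 7.71 with miR-452, 7.38 with the scrambled mimic, and 7.43 and 7.38 in untransfected DU145 cells. Both miR-224 arrays and both miR-452 arrays lay above the scrambled and untransfected ones. The call was made for miR-224 against untransfected cells, at 0.43 ± 0.10 (adjusted p = 0.0161), and it was lost when any of the 4 arrays compared was left out, at 0.38 to 0.48 with adjusted p between 0.0602 and 0.128. Against the scrambled array the difference was 0.46 ± 0.12 (adjusted p = 0.107), and it passed without either miR-452 array (adjusted p = 0.029). For miR-452 against untransfected cells it was 0.20 ± 0.10 (adjusted p = 0.146), and after quantile normalization 0.35 (adjusted p = 0.0375). In PC3, TET3 ran from 7.94 to 8.29, with 8.19 and 7.94 on the miR-224 arrays and 8.29 and 7.96 on the scrambled ones, and no comparison was called.

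EZH2, the PRC2 methyltransferase, was lower in every transfected PC3 group than in untransfected PC3 cells. It was at 9.15 and 9.16 with miR-224, 9.03 and 9.25 with miR-452, 9.28 and 9.10 with the scrambled mimic, and 9.64 and 9.62 in untransfected cells. The transfected groups overlapped one another, and none reached the untransfected arrays. The differences were -0.48 ± 0.09 with miR-224 (adjusted p = 0.00898), -0.50 ± 0.09 with miR-452 (adjusted p = 0.00492) and -0.45 ± 0.09 with the scrambled mimic (adjusted p = 0.0141). Against the scrambled mimic they were -0.03 ± 0.09 with miR-224 and -0.05 ± 0.09 with miR-452.

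The EZH2 calls depended on single arrays in PC3. For miR-224 the call was lost without untransfected array b (adjusted p = 0.0725) or c (adjusted p = 0.0513) and without miR-224 array b (adjusted p = 0.0598), at -0.47 to -0.49. Without untransfected array b, the miR-452 difference was -0.49 (adjusted p = 0.0571). The scrambled mimic's difference was -0.44 without untransfected array b (adjusted p = 0.14), -0.36 without scrambled array c (adjusted p = 0.0897) and -0.30 after quantile normalization (adjusted p = 0.0553).

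In DU145, EZH2 was at 9.61 and 9.53 with miR-224, 9.17 and 9.40 with miR-452, 9.34 with the scrambled mimic, and 9.69 and 9.71 in untransfected cells. The untransfected arrays were again the highest. The difference was called for miR-452, at -0.42 ± 0.10 (adjusted p = 0.0163), and after quantile normalization it was -0.22 (adjusted p = 0.0697). It was lost without either untransfected array (adjusted p = 0.101 and 0.113) or without miR-452 array a (-0.30, adjusted p = 0.0537). With the scrambled mimic it was -0.35 ± 0.12 (adjusted p = 0.0789), and -0.20 after quantile normalization.

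SUZ12, the scaffold of PRC2, rose with miR-224 against the scrambled mimic in PC3, to near its untransfected level. The arrays read 10.52 and 10.57 with miR-224, 10.25 and 10.31 with miR-452, 10.16 and 10.20 with the scrambled mimic, and 10.60 and 10.44 in untransfected PC3 cells. The miR-224 arrays lay above all scrambled and miR-452 arrays and between the untransfected ones. Against the scrambled mimic the difference was 0.36 ± 0.08 (adjusted p = 0.0112), not called without miR-224 array b (0.33, adjusted p = 0.107). Against miR-452 it was 0.27 ± 0.08 (adjusted p = 0.0424), and that call was lost with any of the 4 arrays compared left out (0.24 to 0.30, adjusted p between 0.111 and 0.242), after quantile normalization (0.21, adjusted p = 0.0688) and with all 15 arrays in 1 fit (adjusted p = 0.0584).

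SUZ12 was lower with the scrambled mimic than in untransfected PC3 cells, at -0.33 ± 0.08 (adjusted p = 0.0239). After quantile normalization this was -0.21 (adjusted p = 0.0855), and the call was lost without untransfected array b (-0.25, adjusted p = 0.218) or scrambled array b (-0.31, adjusted p = 0.0594) or c (-0.35, adjusted p = 0.0801). In DU145, SUZ12 was at 9.78 and 9.66 with miR-224, 9.48 and 9.73 with miR-452, 9.54 with the scrambled mimic, and 9.92 and 9.90 in untransfected cells. No DU145 comparison was called, and the untransfected arrays were the highest. Against them the difference was -0.37 ± 0.13 on the scrambled array (-0.22 after quantile normalization) and -0.30 ± 0.10 with miR-452 (adjusted p = 0.0532). The miR-452 difference passed under trend and robust moderation (adjusted p = 0.0191) and was -0.13 after quantile normalization (adjusted p = 0.253). In PC3, miR-452 gave -0.24 ± 0.08 against untransfected cells (adjusted p = 0.0562). It passed under trend and robust moderation (adjusted p = 0.0337) and was -0.14 after quantile normalization.

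EED, the subunit that reads the histone mark, was lower in all transfected PC3 groups. It was at 7.27 and 7.37 with miR-224, 7.36 and 7.24 with miR-452, 7.40 and 7.26 with the scrambled mimic, and 7.84 and 7.60 in untransfected PC3 cells. All 6 transfected arrays lay below both untransfected arrays. The differences were -0.40 ± 0.10 with miR-224 (adjusted p = 0.0255), -0.42 ± 0.10 with miR-452 (adjusted p = 0.0129) and -0.39 ± 0.10 with the scrambled mimic (adjusted p = 0.0262). Without untransfected array b, none of these was called, at -0.29 (adjusted p = 0.198), -0.30 (adjusted p = 0.14) and -0.27 (adjusted p = 0.251). Other single arrays that ended a call were miR-224 array a (-0.35, adjusted p = 0.147) and b (-0.46, adjusted p = 0.0751), miR-452 array c (-0.36, adjusted p = 0.0865) and scrambled array c (-0.32, adjusted p = 0.137), each for its own group.

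In DU145, EED was at 7.39 and 7.37 with miR-224, 7.69 on both miR-452 arrays, 7.47 with the scrambled mimic, and 7.79 and 7.75 in untransfected cells. Here miR-224 gave the lowest arrays. Its difference against untransfected cells was -0.39 ± 0.08 (adjusted p = 0.0113). It was lost when any of the 4 arrays compared was left out (-0.37 to -0.41, adjusted p between 0.0516 and 0.123), and after quantile normalization it was -0.24 (adjusted p = 0.0644). Against miR-452 the difference was -0.31 ± 0.08 (adjusted p = 0.0604), and it passed after quantile normalization (-0.36, adjusted p = 0.0251).

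Ordered by group mean within a line, most neighbouring treatments were not called different at the adjusted p threshold, which does not show that they were alike. The exceptions among the 10 genes were in PC3: TET1 with miR-224 above the next group, untransfected cells, and EZH2 and EED in scrambled cells, the next group, below untransfected cells. Untransfected cells had the highest mean of DNMT1, EZH2 and EED in both lines.

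Replication and proliferation genes were also lower in transfected than in untransfected cells, though not always together with DNMT1, UHRF1 and EZH2. Of 27 genes of S phase and the cell cycle, 17 were lower and none higher with the scrambled mimic than in untransfected PC3 cells (10.9% of all genes called lower). CCNE2, the cyclin E that opens S phase, changed by -0.72 ± 0.08, and MCM6, a subunit of the replicative helicase, by -0.70 ± 0.08. Against untransfected PC3 cells 24 of the 27 were lower with miR-224 (6.85% of all genes) and 18 with miR-452 (14.1%). With miR-224, DNMT1 (-0.46 ± 0.08) and EZH2 (-0.48 ± 0.09) were called lower too. Averaged UHRF1 was not (-0.335 ± 0.101), while its RefSeq feature was (-0.74 ± 0.14). With miR-452, EZH2 was called lower (-0.50 ± 0.09, adjusted p = 0.00492). Neither DNMT1 (-0.10 ± 0.08, adjusted p = 0.351) nor UHRF1 (-0.07 ± 0.10, adjusted p = 0.612) was called with miR-452. With miR-224 against the scrambled mimic in PC3, 13 of the 27 were lower (4.65% of all genes called lower) and none higher, led by RRM2, the small subunit of ribonucleotide reductase (-0.92 ± 0.08, adjusted p = 4.68e-05), and TYMS, thymidylate synthase (-0.65 ± 0.08). In that comparison DNMT1 (-0.08 ± 0.08), UHRF1 (0.07 ± 0.10) and EZH2 (-0.03 ± 0.09) were not called. With miR-452 against the scrambled mimic, 3 of the 27 were higher (2.89% of all genes called higher), among them CCNE2 (0.36 ± 0.08) and MCM6 (0.33 ± 0.08), and none was lower.

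In DU145 the numbers lower than in untransfected cells were 10 of 27 with miR-224 (15.5% of all genes called lower), 15 with miR-452 (19.9%) and 6 with the scrambled mimic (9.22%), and none was higher. With miR-452, DNMT1 (-0.31 ± 0.09) and EZH2 (-0.42 ± 0.10) were called lower, neither of them after quantile normalization, and averaged UHRF1 (0.02 ± 0.09) was not called. With miR-224 none of DNMT1 (-0.14 ± 0.09), UHRF1 averaged over its features (-0.05 ± 0.09) and EZH2 (-0.13 ± 0.10) was called against untransfected cells. The RefSeq feature of UHRF1 alone was lower in that comparison (-0.335 ± 0.092, adjusted p = 0.0357), and its cDNA feature was at 0.23 ± 0.11 (adjusted p = 0.165). The mean level over the 27 genes was 8.98 and 9.06 with miR-224, 9.25 and 9.27 with miR-452, 9.22 and 9.26 with the scrambled mimic, and 9.56 and 9.64 in untransfected PC3 cells. In DU145 it was 8.97 and 9.01 with miR-224, 8.96 and 9.14 with miR-452, 9.07 with the scrambled mimic, and 9.29 and 9.33 in untransfected cells. In both lines every transfected array lay below the untransfected ones. Genes of high level were lower as well. In DU145 the median difference of the 27 genes was -0.29 with miR-224, -0.26 with miR-452 and -0.19 with the scrambled mimic. That of the 4594 genes of highest mean level was -0.15, -0.21 and -0.17. In PC3 the medians were -0.56, -0.36 and -0.34, against -0.04, -0.12 and -0.13. Values after quantile normalization were taken for the 10 genes only. The part of cell proliferation in the levels of the 10 genes was not tested.

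**Figure D4:**
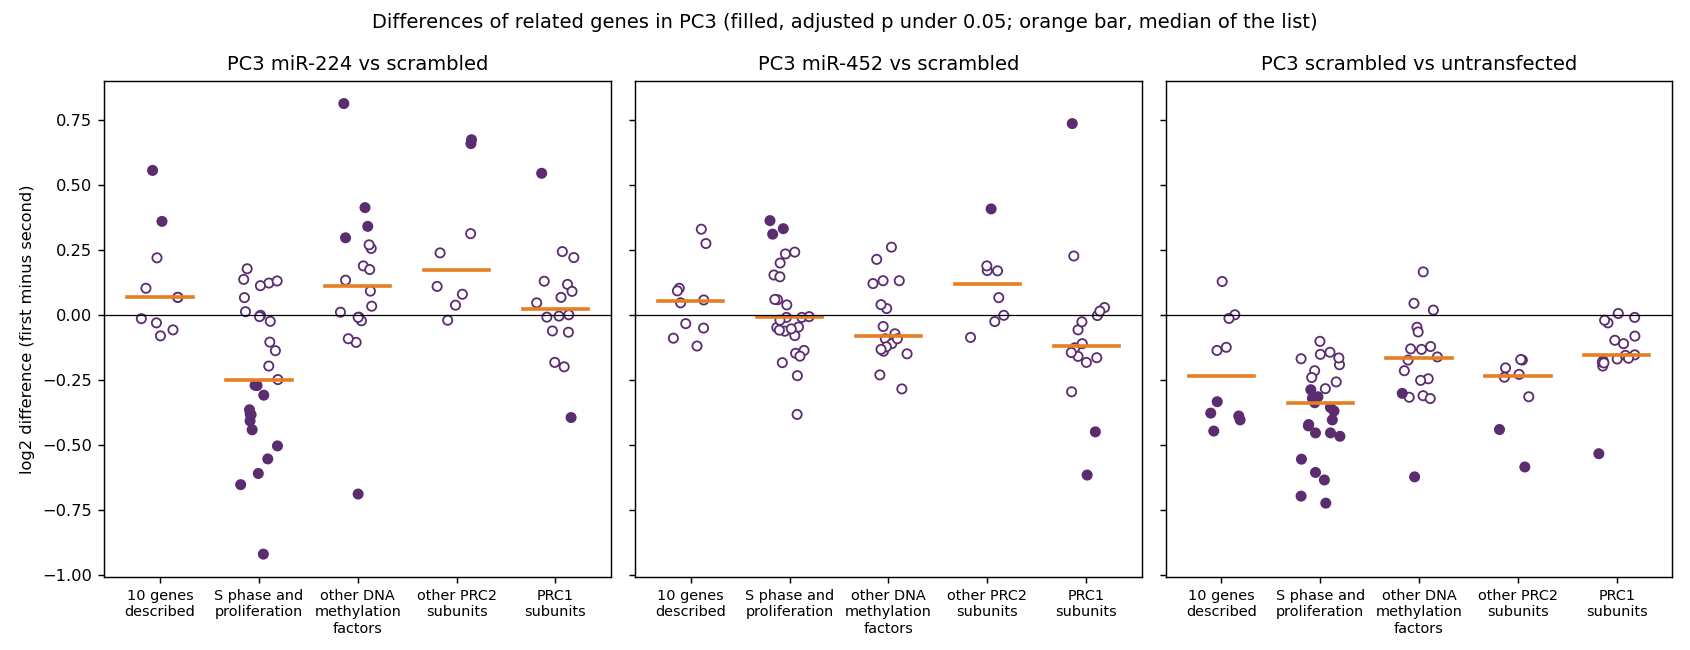
Log2 difference (y axis, first-named treatment minus second) in PC3 of the 10 genes described and of the measured members of 4 related lists, for miR-224 and miR-452 against the scrambled mimic and for the scrambled mimic against untransfected cells; points are genes, filled where the adjusted p is under 0.05, and orange bars are list medians. The median of the 27 S phase and proliferation genes is -0.25 with miR-224 against the scrambled mimic, where that of the 10 genes is 0.07, and -0.34 with the scrambled mimic against untransfected cells, where that of the 10 genes is -0.23.

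Other factors of DNA methylation were read beside the enzymes. Of 18 measured of 19 listed, miR-224 raised 4 and lowered 1 against the scrambled mimic in PC3, where 12.1% of all genes were called higher and 4.65% lower. TDG, the glycosylase that removes the bases TET enzymes oxidise, was higher (0.81 ± 0.10, adjusted p = 0.00035), as was UHRF2, the relative of UHRF1 (0.41 ± 0.10, adjusted p = 0.0145), while MBD2, a reader of methylated CG pairs, was lower (-0.69 ± 0.08, adjusted p = 0.000376). With miR-224 against untransfected PC3 cells TDG was higher (0.50 ± 0.10, adjusted p = 0.00748) and MBD2 lower (-0.52 ± 0.08, adjusted p = 0.00277), while UHRF2 was not called. For the scrambled mimic against untransfected PC3 cells UHRF2 was at -0.32 ± 0.10 and TDG at -0.31 ± 0.10, neither of them called. In DU145, MBD2 was lower with miR-224 than on the single scrambled array (-0.61 ± 0.13) and than in untransfected cells (-0.67 ± 0.10, adjusted p = 0.00362). With miR-452 against the scrambled mimic no factor of the 18 was called by limma in either line (5.22% of all genes called in PC3 and 2.1% in DU145), with 2 higher and 2 lower at an unadjusted p under 0.05 in PC3 and 2 higher in DU145. HELLS, a helicase needed for DNA methylation at repeats, was lower with the scrambled mimic than in untransfected cells in PC3 (-0.62 ± 0.10, adjusted p = 0.00432) and in DU145 (-0.81 ± 0.11, adjusted p = 0.013).

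Among 8 other PRC2 subunits, miR-224 raised 2 against the scrambled mimic in PC3 (12.1% of all genes called higher) and lowered none. They were JARID2 (0.66 ± 0.08, adjusted p = 0.000509), which guides PRC2 to its sites, and MTF2 (0.67 ± 0.13, adjusted p = 0.004), which binds CG-rich DNA. JARID2 was higher with miR-452 in PC3 too (0.41 ± 0.08, adjusted p = 0.0166). In DU145 it was higher with miR-224 than on the single scrambled array (0.55 ± 0.10, adjusted p = 0.0301), which itself lay below untransfected cells (-0.43 ± 0.10, adjusted p = 0.0326), and against untransfected cells miR-224 gave 0.12 ± 0.08 (adjusted p = 0.317). PHF19, another PRC2 partner, was lower with the scrambled mimic than in untransfected PC3 cells (-0.58 ± 0.08, adjusted p = 0.00308), as EZH2 was. MTF2 was lower there as well (-0.44 ± 0.13, adjusted p = 0.0398), and it was not called with miR-224 against untransfected PC3 cells. In that comparison JARID2 was higher (0.49 ± 0.08, adjusted p = 0.00461) and PHF19 lower (-0.60 ± 0.08, adjusted p = 0.00117).

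The sister complex PRC1, which ubiquitylates histone H2A, had 16 measured of 20 listed subunits. With miR-452 against the scrambled mimic in PC3 (2.33% of all genes called lower), PCGF3 (-0.62 ± 0.10, adjusted p = 0.00502) and RYBP (-0.45 ± 0.08, adjusted p = 0.00847) were lower and PCGF5 was higher (0.74 ± 0.07, adjusted p = 0.000187). PCGF3 was lower in DU145 too (-0.62 ± 0.11, adjusted p = 0.0239). These genes belong to the variant PRC1 complexes, in which RYBP takes the place of a CBX protein. PCGF3 and RYBP were higher with miR-224 than with miR-452 in both lines, by 0.84 ± 0.10 and 0.69 ± 0.08 in PC3 and by 0.73 ± 0.09 and 0.59 ± 0.11 in DU145. PCGF5 was also higher with miR-224 in PC3 (0.55 ± 0.07), and it was lower with the scrambled mimic than in untransfected cells (-0.53 ± 0.07).

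Of 6 measured genes that oppose polycomb, none was called with either mimic against the scrambled mimic in PC3 by limma (12.1% of all genes called higher and 4.65% lower for miR-224, and 5.22% in either direction for miR-452), with 3 higher for miR-224 and 1 for miR-452 at an unadjusted p under 0.05. In DU145, KMT2D, a methyltransferase of histone H3 lysine 4, was higher with miR-224 than on the single scrambled array (0.74 ± 0.14, adjusted p = 0.0321). That array was lower than untransfected cells (-0.53 ± 0.14, adjusted p = 0.0423), and miR-224 against untransfected cells gave 0.21 ± 0.12 (adjusted p = 0.196). Of 8 measured genes that supply the methyl donor or TET cosubstrates, MTRR, the reductase that keeps methionine synthase active, fell with miR-224 against the scrambled mimic, in PC3 (-0.85 ± 0.08, adjusted p = 0.000116) and in DU145 (-1.27 ± 0.11, adjusted p = 0.00208). OGT, a sugar transferase that binds TET enzymes, was higher with miR-224 than on the single scrambled DU145 array (0.66 ± 0.11, adjusted p = 0.0222). The scrambled array was lower than untransfected cells (-0.83 ± 0.11, adjusted p = 0.013), and miR-224 against untransfected cells gave -0.17 ± 0.09 (adjusted p = 0.191).

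Over the 15 arrays, each centred on the mean of its line, the genes described fell into loose sets. These correlations share the arrays, the controls and the normalization, and they are given as a description. TET1 and TET2 had r = 0.89, TET1 and SUZ12 0.78, DNMT1 and UHRF1 0.75, and DNMT1 and EZH2 0.73. The highest r with another of the 10 was 0.41 for DNMT3A, 0.32 for DNMT3B and 0.27 for TET3. Over all 18377 genes, those most like DNMT1 were OIP5 (r = 0.93) and ASPM (0.91), which act in mitosis, and PHF19 (0.91). Those most like EZH2 were COPS3 (0.96), PATZ1 (0.95) and the phosphatase CDC25C (0.94), which starts mitosis. UHRF1 was most like WIPF3 (0.90), ZNF692 (0.84) and TFDP1 (0.83), the partner of E2F factors. DNMT3B was most like FRAT1 (0.90), ASB10 (0.89) and GPR152 (0.88), and TET3 was most like GADD45A (0.81), ATP6V0A1 (0.80) and RHEB (0.78).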

How the data were processed

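The authors deposited log2 expression values of 15 Affymetrix arrays, computed in GeneSpring GX 11.0 (RMA16) per the labels, with PC3 and DU145 arrays normalized separately and 1 DU145 scrambled array left out. The probe set definition and genome build are not given in the sources used here. Features with 1 gene symbol (19310 of 28869; 19279 matched to RefSeq by Entrez number) were averaged per gene, which gave 18377 genes with no filter on level. Within each line limma 3.58.1 (R 4.3.3, statmod 1.5.0) fitted 4 group means, with 4 residual degrees of freedom in PC3 and 3 in DU145. Differences between lines came from 1 fit of all 15 arrays with 7. Tests were two-sided with Benjamini-Hochberg adjustment over all genes at 0.05, and the fit was tested on simulated data. The number of arrays limits the precision.

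The 10 genes were named in every comparison. Of each related list, counts and up to 4 called members with the smallest p were eligible to be named, together with the 3 genes of highest Pearson r to DNMT1, UHRF1, EZH2, DNMT3B and TET3. Members and lists were chosen with earlier results of these data known. Deviations of same-letter arrays had correlations of both signs (r from -0.147 to 0.273 in PC3 and from -0.31 to 0.051 in DU145). The letters were therefore not used as pairs in the main fits, and a fit with the letter as a block is given below. Promoter and microRNA sequences were taken from RefSeq tables of GRCh38.p14.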

Additional observations from a re-analysis of the deposited data

Results flagged for a closer look

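The miR-224 change of TET1 against untransfected cells differed between the lines by 0.56 ± 0.13 (log2, adjusted p = 0.0264 by limma), and the test of this difference is what singles it out. TET1 changed by 0.43 in PC3, where both miR-224 arrays lay above both untransfected arrays, and by -0.13 in DU145, where they overlapped. With the scrambled mimic as control the changes were 0.56 in PC3 and 0.35 in DU145, and the difference of 0.20 ± 0.15 was not called.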

How the results depend on the processing

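Numbers here are how many of the 10 genes were called. Of 24 called differences, 3 held with each array left out in turn: TET1 for miR-224 against the scrambled mimic and against miR-452, and DNMT1 for miR-224 against untransfected cells, all in PC3. With 1 array left out the number ranged, in PC3, from 1 to 2 for miR-224 and from 0 to 1 for miR-452 against the scrambled mimic, from 1 to 5 for miR-224, 0 to 3 for miR-452 and 0 to 5 for the scrambled mimic set against untransfected cells, and from 1 to 3 between the mimics. In DU145 the ranges were 0 to 1 for miR-224 against the scrambled mimic, 0 to 2, 0 to 5 and 0 to 6 for miR-224, miR-452 and the scrambled mimic against untransfected cells, and 0 to 3 between the mimics. For the difference between lines (miR-224 against untransfected cells) it was 0 to 1. DU145 scrambled comparisons could not be made without their only scrambled array.

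After quantile normalization within the line 14 of the 24 calls held. The number became 2 for miR-452 against the scrambled mimic in PC3 (as deposited, 0), 2 for the scrambled mimic against untransfected PC3 cells (5), and in DU145 1 for miR-224 (2), 1 for miR-452 (4; none of these held, and the 1 is TET3, higher) and 0 for the scrambled mimic (1), each against untransfected cells, and 1 between the mimics (0). It became 3 and 1 for the differences between lines of miR-224 (1) and miR-452 (0) against untransfected cells. Trend and robust moderation gave 1 for miR-452 against the scrambled mimic in PC3 and 3 for the scrambled mimic against untransfected DU145 cells. Features without averaging gave 1 and 3 in the same comparisons, and 1 fit of all 15 arrays gave 1 and 4 there and 2 between the mimics in DU145. The setting without averaging kept, for each gene and comparison, the feature with the smallest p, which favours a call. Leaving out genes under percentile 20 of mean level kept all 24 calls. The cause of these shifts was not tested. The UHRF1 feature annotated with cDNA records alone reversed the sign of the scrambled mimic against untransfected PC3 cells, to 0.16.

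With the replicate letter as a block, 11 of the 24 calls held. The number became 1 for miR-224 against the scrambled mimic (SUZ12 lost) and 1 for miR-224 against untransfected cells (TET1, EZH2 and EED lost) in PC3, 0 for each of the 3 transfected groups against untransfected DU145 cells, and 0 for the difference between lines of miR-224 against untransfected cells. The letters are only shared names, and not every array correlates best with its own letter. With the DU145 miR-452 letters swapped (chosen after seeing the data) the block gave 2 for miR-224, 3 for miR-452 and 0 for the scrambled mimic against untransfected DU145 cells, and 0 for that difference between lines.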
